A study of Danio rerio with 8 samples.

Results

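In zebrafish NRAS-driven melanoma, 92 genes were clearly higher in every tumour carrying a dgat1a transgene than in any tumour carrying egfp. Signal is the deposited per-million fragment value, in fpm. It summed to between 907747 (dgat1a 5) and 1053610 (egfp 1), so it was not scaled to the plain read total. A gene belonged to this set when its mean signal over the 8 tumours was at least 1 fpm. Its lowest dgat1a value also had to be more than 1.5 times its highest egfp value. The 92 were drawn from 16853 genes at that mean, in a table of 22416 genes. The members were chosen by these same values in these 8 tumours, so the values are a description and carry no test. No gene lengths were at hand, so signal is compared between tumours and not between genes. Among the 20 with the widest gaps were a DGAT1 gene, taken as the overexpressed one, and distal genes of the Hox clusters. The 20 also held the glycerol-3-phosphate dehydrogenase gene GPD1, the transcription factor gene SP8 and the desaturase gene scdb.

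DGAT1 enzymes sit in the membrane of the endoplasmic reticulum and join a fatty acyl-CoA to diacylglycerol, the last step in making triacylglycerol, which is then stored in lipid droplets. The glycerol backbone of triacylglycerol comes from glycerol-3-phosphate, and the fatty acids from uptake or from synthesis followed by desaturation. Hox genes lie in clusters and give cells their position along the body axis. The genes of paralogue groups 10 to 13, at the end of each cluster that is read in the hind part of the embryo and in the outer fin bud, mark the most posterior and distal positions.

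The tumours were Melanoma on a strain background with mitfa-/- and nras G12D, which both groups shared. The 3 controls carried Tg(mitfa:egfp) and the other 5 tumours carried Tg(mitfa:dgat1a). All were harvested at 10 to 12 weeks, matched for age, and the question named by the series is what dgat1a overexpression does in this tumour. Each transgene was delivered with miniCoopR, a vector that puts back mitfa in fish without it, so that rescued pigment cells carry the gene under the mitfa promoter. The promoter driving mutant nras, the body site of each tumour, the clutch and the sex were not given in the sources used here. Nothing in the labels says whether replicates came from separate fish, and the spread below is that between these samples.

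The files held 20936089 to 26865735 reads per tumour, so 3 reads corresponded to 0.109 to 0.138 fpm. The pigment cell and crest genes SOX10 (667 to 1116 fpm), TYR (114 to 510.5 fpm), DCT (12.97 to 107 fpm) and pmela (1398 to 13275 fpm) were present in all 8 tumours. The egfp 1 library stood apart, with a mean correlation of 0.854 with the other 7 against 0.897 to 0.918 for the rest, and 1232 genes at 0 against 353 to 777. That library was the lowest egfp tumour in 53 of the 92 genes, 57.6% against 35.2% of all tested genes, and its part in the result was not tested. Without it the same rule gave 143 genes. All 92 were among them by construction, since leaving out a control cannot raise the highest egfp value. The rule turned on the highest egfp value, which was that of egfp 1 in 15 genes, of egfp 2 in 44 and of egfp 3 in 39, ties included. These are whole tumours, in which fewer cells of a type and less RNA per cell cannot be told apart.

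The DGAT1 identifier ENSDARG00000103503 was taken as the overexpressed gene from its symbol and its level. Its level is therefore no separate check of the labels. Its signal was 39.8, 75.1 and 26.5 fpm in the egfp tumours and 4159.9, 3002, 2623, 2223 and 3069 fpm in the dgat1a tumours. The lowest dgat1a tumour was 29.6 times the highest egfp tumour. Group means were 47.1 ± 25.1 fpm (SD, n = 3) and 3015 ± 724 fpm (SD, n = 5), a log2 difference of 6.08 (SE 0.33) on log2(fpm + 0.5). Reads of the transgene and of the fish's own gene cannot be told apart in this count. The gene-name table gives the symbol DGAT1 to a second identifier, ENSDARG00000054914, and does not say which is dgat1a. That second gene read 3.66, 4.54 and 5.52 fpm in egfp tumours and 3.03, 5.55, 3.68, 3.94 and 5.96 fpm in dgat1a tumours, and the groups overlapped. DGAT2, the gene of an unrelated enzyme for the same reaction, stayed at or under 0.50 fpm in 7 tumours and reached 2.503 fpm in dgat1a 2, and was below the mean needed for testing.

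**Figure D1:**
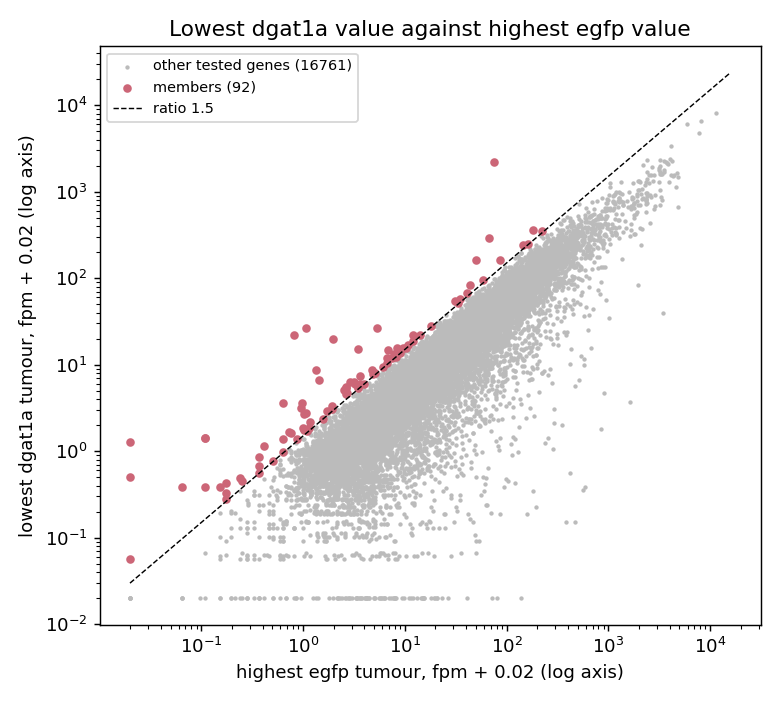
Each point is a gene tested, with its highest egfp value on the horizontal axis and its lowest dgat1a value on the vertical axis, both in fpm + 0.02 on log axes. The 92 members, in red, lie above the dashed line of ratio 1.5, and most of them lie close to it.

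The 92 genes made up 0.546% of those tested. The gap was under 2-fold in 55 of them, 2 to 3-fold in 17, 3 to 5-fold in 7 and over 5-fold in 10, and in the last 3 every egfp tumour was at 0. Their mean egfp signal was under 1 fpm in 38 genes, 1 to 10 fpm in 38 and over 10 fpm in 16, so for many of them the difference lay between few reads and a moderate number. In 7 genes the 3 egfp libraries held 0 to 3 reads in all. Over the 89 genes with any egfp read, the median ratio of the group means was 4.87. The median log2 difference of the 92 was 1.75, also when the 3 genes at 0 were set at their bound of 3 reads per library, and that of all tested genes was 0.04.

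Turned around, the rule gave 94 genes lower in every dgat1a tumour. The rule was also counted in the other 55 ways of dividing the 8 tumours into 3 and 5. Those counts ran from 0 to 236 with a median of 13, and 2 of them, 98 and 236, were above 92. Groups that did not overlap at all, with dgat1a higher, were seen in 752 genes, or 4.46% of those tested.

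Calls on the same contrast were made of the values that chose the genes, so nothing is read from them. With limma and Benjamini-Hochberg adjustment over 16853 genes, 6 genes were called higher in dgat1a tumours (0.0356%), and all 6 were members: DGAT1, HOXC10, HOXC11, GPD1, si:dkey-56m19.5 and PDIA3. In the authors' deposited table, 82 members had an adjusted p under 0.05 with dgat1a higher, against 1.89% of all genes with an adjusted p there. Of reads recovered from the signal, edgeR's quasi-likelihood test called 2 members (0.0119% of all) and DESeq2 called 86 (2.35% of all).

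Lipid genes were 5 of the 92. GPD1, which makes glycerol-3-phosphate from a glycolytic intermediate, read 1.497, 1.45 and 1.97 fpm in egfp tumours for the identifier ENSDARG00000043180. In dgat1a tumours it read 33.8, 32.4, 19.99, 65.2 and 27.7 fpm. The lowest dgat1a tumour was 10.2 times the highest egfp tumour, and the log2 difference was 3.98 (SE 0.36). The other members of this family did not share the gap: a second GPD1 identifier read 1.81 to 18.7 fpm in egfp and 2.81 to 7.74 fpm in dgat1a tumours, and gpd1c and GPD1L also overlapped between groups.

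The gene scdb encodes a stearoyl-CoA desaturase, which puts the double bond into newly made fatty acids. Its signal was 1.01, 4.98 and 5.33 fpm in egfp and 60.4, 26.7, 40.6, 60.5 and 30.9 fpm in dgat1a tumours, a log2 difference of 3.53 (SE 0.48). Its paralogue SCD overlapped between groups, at 2.97 to 9.04 fpm against 5.71 to 15.3 fpm.

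ANGPTL4 encodes a secreted inhibitor of lipoprotein lipase. It read 5.51, 8.37 and 5.87 fpm in egfp and 16.8, 46.8, 96.7, 15.5 and 23.3 fpm in dgat1a tumours, so the dgat1a tumours differed among themselves by 6.24-fold. PLTP, the gene of a phospholipid transfer protein of plasma, was close to level among the controls, at 3.61, 3.04 and 3.47 fpm, and read 7.65, 7.30, 11.05, 7.95 and 15.7 fpm in dgat1a tumours.

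Each of the wider lipid lists held 1 member, beside 0.546% of all tested genes. Of 35 tested genes of triacylglycerol and lipid droplet metabolism the only member was DGAT1, of 36 genes of fatty acid oxidation it was ANGPTL4, and of 37 genes of fatty acid and sterol synthesis it was scdb. The list medians of the log2 difference were 0.22, -0.11 and 0.29, beside 0.04 over all tested genes. limma called DGAT1 and no other gene of these lists, in either direction (0.0178% of all genes were called lower). In the authors' deposited table, 2, 3 and 1 genes of these lists were higher and none was lower, beside 1.89% and 2.71% of all genes. PLIN2, a droplet coat gene, read 0.386 to 9.12 fpm in egfp and 0.764 to 2.77 fpm in dgat1a tumours, and FASN, the fatty acid synthase gene, 76.3 to 88.0 fpm and 67.9 to 201 fpm. Both overlapped between groups.

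**Figure D2:**
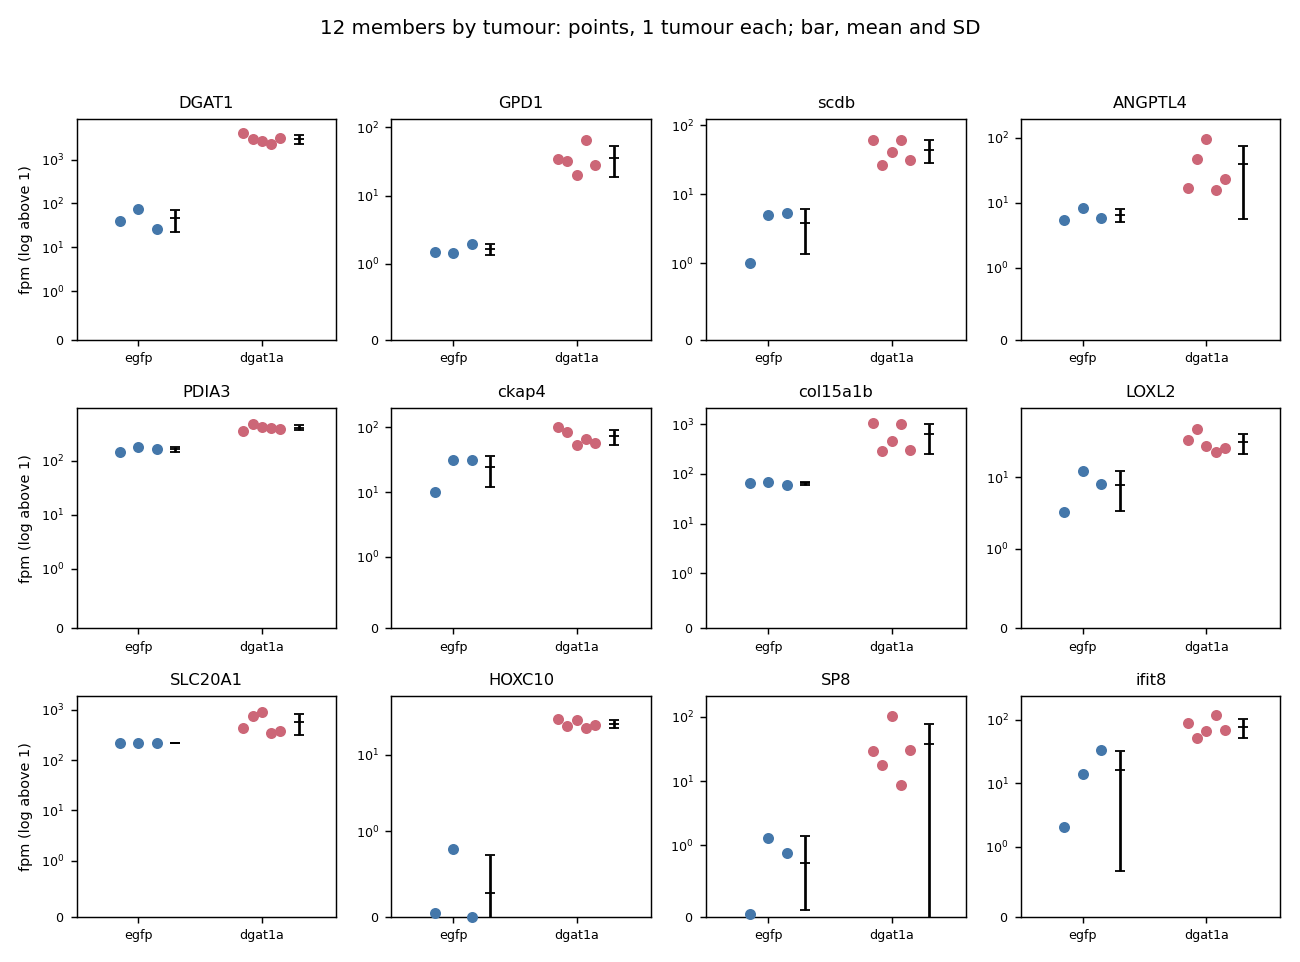
Signal of 12 members in each tumour, in fpm, on an axis that is linear below 1 and logarithmic above. Each point is 1 tumour, and the bar beside each group gives its mean and SD, cut at 0 where the SD is larger than the mean. The dgat1a points lie above all egfp points in each panel, since the genes were chosen so. HOXC10 and PDIA3 varied least among the dgat1a tumours and SP8 most.

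Hox genes were the largest group of one family, with 10 of the 92. The table held 43 identifiers with a Hox symbol, of which 27 had enough signal to be tested. The 10 members all lay in paralogue groups 10 to 13, where 11 of 18 identifiers were tested. Egfp means of the 10 were 0 to 0.47 fpm, so they reached the mean of 1 fpm only through the dgat1a tumours. The share of 10 in 11 is therefore partly fixed by the filter. None of the 16 tested identifiers of groups 1 to 9 was a member. The count of members among all genes was 0.546%, but the family was singled out after the members were seen, and no test is given. In the authors' deposited table, 7 identifiers of groups 10 to 13 were higher and 2 of groups 1 to 9 were lower. The shares of all genes there were 1.89% and 2.71%. The members not called there were HOXC11, HOXC12 (ENSDARG00000070352) and hoxc11b.

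All 7 identifiers of HOXC10, HOXC11, HOXC12 and HOXC13 in the table were members. HOXC10 (ENSDARG00000070348) read 0.044, 0.793 and 0 fpm in egfp tumours and 28.7, 23.7, 28.0, 22.1 and 24.1 fpm in dgat1a tumours. This was the most even of all 92 genes within the dgat1a group, where highest and lowest differed by 1.297-fold. Its log2 difference was 5.19 (SE 0.34).

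HOXC11 (ENSDARG00000070351) was at 0 in egfp 1 and egfp 3 and at 1.06 fpm in egfp 2. In the dgat1a tumours it read 44.6, 77.8, 97.8, 26.9 and 61.6 fpm, and no dgat1a tumour was near the egfp values. Its log2 difference of 6.28 (SE 0.51) was the largest of the 92, and moved to 7.96 with a pseudocount of 0.1, since the egfp values are close to 0. In the authors' deposited table its log2 fold change was smaller, at 1.76, with an adjusted p of 0.079 (Wald test).

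In HOXC12 and HOXC13 identifiers the dgat1a tumours parted from each other. HOXC12 (ENSDARG00000070352) read 0, 0.0881 and 0.0386 fpm in egfp, and 2.59, 108, 87.8, 1.39 and 18.6 fpm in dgat1a tumours. HOXC13 (ENSDARG00000070353) read 0, 0.0881 and 0 fpm, and 4.62, 27.9, 16.4, 0.365 and 35.8 fpm. For both genes dgat1a 1 and dgat1a 4 were the low tumours of their group, and the lowest dgat1a value of HOXC13 rested on 10 reads.

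Zebrafish keep a second Hox C cluster from a genome duplication in bony fish, and hoxc11b is named for it. The gene-name table does not place any of the HOXC11, HOXC12 and HOXC13 identifiers in either cluster. The hoxc11b gene was at 0 in all egfp tumours and read 0.483, 0.542, 16.4, 1.97 and 51.4 fpm in dgat1a tumours, a mean at least 107-fold higher when each egfp library is set at 3 reads. HOXC12 (ENSDARG00000103133) was also at 0 in egfp tumours and read 1.27, 3.55, 11.15, 3.83 and 27.1 fpm, at least 70.9-fold higher on the same bound. HOXC13 (ENSDARG00000113877) read 0.308, 0.749 and 0.309 fpm against 1.63, 13.06, 7.001, 3.03 and 15.2 fpm. In these 3 genes dgat1a 5 was the highest tumour and dgat1a 1 the lowest.

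In the Hox A clusters the members were hoxa10b, HOXA11 and hoxa13b. The hoxa10b gene read 0, 1.41 and 0 fpm in egfp and 12.6, 13.7, 15.5, 6.67 and 7.29 fpm in dgat1a tumours. HOXA11 (ENSDARG00000007009) was low throughout, at 0 to 0.0881 fpm against 1.42 to 6.80 fpm. The hoxa13b gene was at 0.264, 0.417 and 0.368 fpm in dgat1a 1 to 3 and at 3.39 and 4.47 fpm in dgat1a 4 and 5, and its lowest dgat1a value rested on 6 reads.

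Of the identifiers of groups 10 to 13 too low to be tested, hoxb10a overlapped between groups, at 0.044 to 1.23 fpm against 0.292 to 1.99 fpm. The groups also overlapped in hoxa13a, HOXD12 and hoxd13a. HOXD11 did not overlap, at 0 to 0.193 fpm against 0.276 to 2.44 fpm. Nor did a second HOXA11 identifier (ENSDARG00000104162), at 0 to 0.0881 fpm against 0.132 to 0.573 fpm. HOXB13 was at 0 in all egfp tumours and at 0.0365 to 2.14 fpm in dgat1a tumours, where the lowest value was a single read. HOXD10 was the only tested gene of groups 10 to 13 outside the set. It read 20.5, 3.61 and 0.154 fpm in egfp and 6.15, 0.876, 1.24, 15.3 and 5.42 fpm in dgat1a tumours, with full overlap of the groups. The hoxa9b gene, next to these by paralogue group, had 0 and 0.0772 fpm in egfp 1 and egfp 3 but 19.2 fpm in egfp 2, inside the 14.9 to 26.7 fpm of the dgat1a tumours.

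Summed over groups 10 to 13, the Hox C genes gave 0.352, 2.78 and 0.347 fpm in egfp and 83.9, 254.6, 264.6, 59.6 and 233.7 fpm in dgat1a tumours. All 7 identifiers in this sum were members, so its lack of overlap was fixed by the rule. The sum over Hox C genes of groups 1 to 9 overlapped between groups, at 224.7, 37.6 and 9.85 fpm against 29.2, 34.96, 57.4, 36.7 and 48.0 fpm. HOXC8 ran from 0.541 to 113 fpm among the egfp tumours alone, and the highest value was that of egfp 1. HOXD4 lay lower in all dgat1a tumours, with 29.6, 8.81 and 55.9 fpm in egfp and 1.71, 0.292, 0.322, 3.54 and 0.764 fpm in dgat1a tumours, but limma did not call it. The sum over all listed Hox genes of groups 1 to 9 was 456.5, 164.8 and 173.6 fpm in egfp 1 to 3 and 62.0 to 158 fpm across the dgat1a tumours.

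Gene order was taken from the zebrafish reference GRCz12tu, with protein-coding genes only, ranked by their start. In that order hoxc13a, hoxc12a, hoxc11a and hoxc10a follow each other directly, and so do hoxc13b, hoxc12b and hoxc11b. After hoxc10a come hoxc3a and then hoxc9a, and after hoxc11b comes hoxc6b. Overlap of gene models was not checked, so the nearest neighbour of hoxc10a is not settled. The hoxc3a gene was no member, at 4.48 to 74.4 fpm in egfp and 18.4 to 35.4 fpm in dgat1a tumours. HOXC9 was no member either, at 0.463 to 26.5 fpm in egfp and 3.55 to 7.33 fpm in dgat1a tumours. A gene-name table that gives HOXC12 to 2 identifiers does not say which copy each is, so the order is given for the genes and not matched to the counts of each.

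SP8, a zinc finger transcription factor that acts in the outer rim of limb and fin buds, was among the genes with the widest gap. It read 0.044, 1.32 and 0.888 fpm in egfp and 29.1, 17.6, 104.5, 8.68 and 30.7 fpm in dgat1a tumours, with dgat1a 3 the highest. Its relatives SP9 and SP7 overlapped between groups. The hind limb gene TBX4 stayed under 1 fpm in all tumours.

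**Figure D3:**
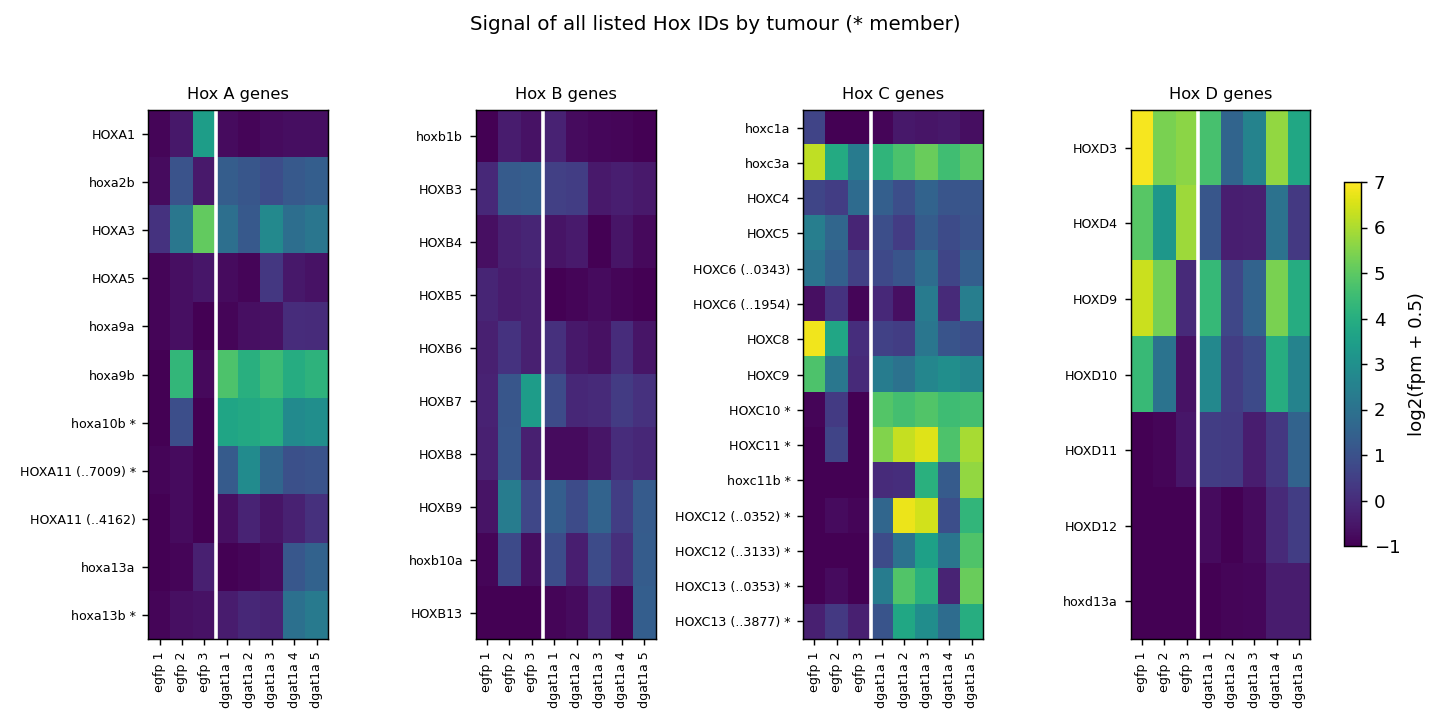
Signal of each Hox identifier by tumour, as log2(fpm + 0.5), with a panel for each Hox cluster letter, egfp tumours left of the white line and members starred. The distal Hox C block is dark in the 3 egfp tumours and brighter in the 5 dgat1a tumours, but not evenly so. In HOXC12 (ENSDARG00000070352) and HOXC13 (ENSDARG00000070353) dgat1a 1 and dgat1a 4 are the dimmer. HOXC13 is dark in dgat1a 4, at 0.365 fpm, and hoxc11b is dark in dgat1a 1 and dgat1a 2, at 0.483 and 0.542 fpm.

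Genes of protein folding and transport in the endoplasmic reticulum were 5 of the 92. PDIA3, an oxidoreductase that works with calnexin and calreticulin on new glycoproteins, read 144, 183 and 164 fpm in egfp and 362, 484, 431, 416 and 384 fpm in dgat1a tumours. The group means were 163 ± 19.49 fpm (SD, n = 3) and 415 ± 47.0 fpm (SD, n = 5), and the spread within each group was small beside the gap. The ckap4 gene, for a protein of reticulum sheets, read 10.1, 31.1 and 31.1 fpm against 101, 86.3, 54.1, 65.6 and 57.3 fpm. CRELD2, a folding factor of the stress response, read 4.27, 6.04 and 6.60 fpm against 11.9, 25.2, 20.4, 12.5 and 16.4 fpm. DNAJB9, a partner of the chaperone HSPA5, was low, at 0.772 to 1.01 fpm against 1.76 to 4.25 fpm. GOLT1B (ENSDARG00000059308), of vesicle transport to the Golgi, read 12.5 to 14.02 fpm against 22.3 to 46.5 fpm.

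A wider list of this machinery, drawn up after the members were seen, had 43 tested genes. In 20 of them, or 46.5%, the groups did not overlap and dgat1a was higher, beside 4.46% of all genes, and 15 of the 20 were not members. The other 5 were members, whose lack of overlap was fixed by the rule, and they count in every value of this list. In 40 of the 43 the log2 difference was above 0, with a median of 0.72 beside 0.04 over all genes. The share of all genes above 0 was not counted, and no test is given. limma called PDIA3 and no other. The authors' deposited table had 11 of the list higher and 0 lower, beside 1.89% and 2.71% of all genes.

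HSP90B1, the reticulum form of the HSP90 chaperones, read 165, 295 and 335 fpm in egfp and 437, 756, 839, 483 and 609.9 fpm in dgat1a tumours. HSPA5, the main chaperone of the reticulum, read 180.4, 259.5 and 312 fpm against 368, 1245, 569.5, 499.8 and 437 fpm, with dgat1a 2 far above the rest. CANX, the calnexin gene, read 375 to 513 fpm against 730.0 to 1583 fpm. These 3 genes did not overlap between groups, but their gaps were under 1.5-fold. Others of the list did overlap, among them the stress sensor genes ern1 and EIF2AK3, and EIF2AK3 had a log2 difference of -0.13. In XBP1, the transcription factor made active by ern1, the groups also overlapped, at 83.5 to 129 fpm against 121 to 232 fpm.

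Genes of matrix, adhesion and cytoskeleton were 11 of the 92. The basement membrane collagen gene col15a1b belonged to the 10 members with the highest signal in dgat1a tumours. It read 66.6, 67.8 and 58.6 fpm in egfp and 1074, 293, 464, 1001 and 309.8 fpm in dgat1a tumours, with dgat1a 1 and dgat1a 4 about alike and above the other 3. LOXL2, which crosslinks collagen, read 3.30, 12.1 and 7.95 fpm against 33.1, 46.3, 27.1, 22.3 and 25.4 fpm. It was the only member among 40 tested genes of matrix remodelling, a list whose median log2 difference was 0.46.

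Several adhesion genes best known from neurons were in the set. DSCAM, an immunoglobulin-type adhesion gene, read 126, 144 and 8.49 fpm in egfp and 530.0, 244, 417, 369 and 348 fpm in dgat1a tumours, so egfp 3 stood far below the other controls. NCAM2 read 1.59 to 2.64 fpm against 5.43 to 27.5 fpm, and the cadherin gene CDH18 0.0881 to 1.06 fpm against 2.75 to 8.75 fpm. CLIP3, for a protein that binds microtubules, read 0.220, 1.59 and 3.59 fpm against 63.2, 56.2, 36.7, 5.98 and 48.8 fpm, with dgat1a 4 much nearer to the controls than the others. DST, a very large linker of cytoskeletal filaments, was just inside the rule at 124 to 164 fpm against 247 to 373 fpm. The others of the group were tmsb2, efnb3a, ptprja and the axonemal dynein gene DNAH7, with ratios of lowest dgat1a to highest egfp of 1.72, 1.89, 1.68 and 3.72.

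Transporters, channels and calcium handling genes were 9 of the 92. SLC20A1, a phosphate carrier of the cell surface, was even among the controls, with 222, 219.8 and 218 fpm. In dgat1a tumours it read 439, 738, 916, 351 and 377 fpm, so the spread lay in the dgat1a group. The calcium genes were atp2a2a, a pump that fills the reticulum with calcium, at 3.17 to 7.85 fpm against 13.4 to 74.6 fpm, and stim2a, a sensor of reticulum calcium, at 0.573 to 1.89 fpm against 3.30 to 11.7 fpm. STEAP4, a reductase of iron and copper, read 0.661, 3.13 and 2.70 fpm against 6.31 to 11.7 fpm, and the heme exporter gene FLVCR1 1.35 to 2.64 fpm against 4.63 to 9.93 fpm. TRPC4 and KCNG3, both channel genes, were under 0.5 fpm in every egfp tumour and as low as 0.305 and 0.751 fpm in their lowest dgat1a tumour. MFSD1 and MFSD9 completed the group.

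Secreted factors, receptors and signalling genes were also 9. AGTRAP, which binds the angiotensin II receptor, read 43.3, 29.0 and 42.4 fpm against 96.9, 97.8, 146, 83.5 and 137 fpm. The agouti family gene asip2b stood at 9.84 fpm in dgat1a 2 and at 1.13 to 1.76 fpm in the other 4, against 0.232 to 0.397 fpm in egfp tumours. The receptor gene tnfrsf9a had 1.76 to 6.02 fpm against 9.49 to 20.9 fpm, and angptl2b, BRSK2, TRHDE, APLP1 and ppm1h were also in the group.

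Both members of the interferon and antigen presentation list, of 38 tested genes, had egfp 1 as their lowest tumour by far. DHX58, which regulates the sensing of viral RNA, read 21.23, 58.4 and 59.0 fpm in egfp and 136, 120.4, 94.2, 258 and 147 fpm in dgat1a tumours. The interferon-induced gene ifit8 read 2.03, 14.02 and 33.4 fpm against 89.1, 51.6, 65.8, 118 and 68.2 fpm, highest in dgat1a 4. The list's median log2 difference was 0.78, and limma called none of its genes. Of the 38 genes, 7 were higher without overlap and 0 lower, beside 4.46% and 5.95% of all genes. The 7 include both members, whose lack of overlap was fixed by the rule, and no test is given. The sum of the lymphocyte markers was also highest in dgat1a 4, at 363 fpm against 103 to 194 fpm in the other 7, and its part in the result was not tested.

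Besides SP8, genes of the set grouped under transcription, chromatin and other gene regulation were FHL2, CHD5, KCTD15, AGO3, prox3, PPP1R13B and morc3b. FHL2, a LIM-domain cofactor, read 3.08, 2.47 and 3.44 fpm against 18.4, 35.9, 66.1, 15.1 and 19.1 fpm. The chromatin remodeller gene CHD5 read 15.5, 34.5 and 9.03 fpm against 57.4, 84.5, 88.7, 80.2 and 93.0 fpm. KCTD15, known in zebrafish for holding back neural crest formation, read 28.5 to 40.7 fpm against 67.9 to 114 fpm. PPP1R13B read 5.37 to 8.95 fpm against 13.5 to 26.5 fpm.

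Of the 15 other named genes, CYP24A1, which breaks down active vitamin D, had the largest log2 difference. It read 0.044, 0.970 and 0.386 fpm in egfp and 21.9, 24.0, 8.66, 1.86 and 4.28 fpm in dgat1a tumours, over 10-fold apart within the dgat1a group. The gene ppdpfa read 0.573 to 0.925 fpm against 3.17 to 6.20 fpm, and the log2 differences of the 15 ran from 0.84 to 3.32.

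The last 18 members had a placeholder name or no symbol. Among them si:dkey-56m19.5 read 37.8, 49.8 and 39.2 fpm in egfp and 311, 221, 176, 161 and 161 fpm in dgat1a tumours. Another, zgc:162730, read 36.4, 86.3 and 82.1 fpm against 162 to 219 fpm. The gene si:dkey-148f24.5 was at 0 in all egfp tumours, but its lowest dgat1a value of 0.0365 fpm was a single read, so its place in the set rests on the 0s. In si:dkey-74i1.3 the egfp tumours held 1 read in all, and dgat1a values ran from 0.368 to 4.13 fpm. ENSDARG00000093360 read 0.617, 0.617 and 0.0772 fpm against 3.55 to 8.28 fpm.

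No member was found on the lists for antioxidant defence (43 genes tested), cell cycle and replication (49), stress response (41), RAS-MAPK output (34), pigment cells (23) or neural crest (18). Their median log2 differences were -0.06, 0.04, 0.76, 0.50, 0.70 and 0.20, and limma called none of their genes. In the same order, 3, 0, 7, 4, 3 and 0 genes were higher without overlap, beside 4.46% of all genes. Lower without overlap were 2, 0, 1, 2, 1 and 0, beside 5.95% of all genes. The stress response list shares HSP90B1, HSPA5 and XBP1 with the reticulum list. In the authors' deposited table, 8 genes of the stress response list were higher and none lower, 2 of the antioxidant list were higher and 1 lower, and none of the cell cycle list was called, beside 1.89% higher and 2.71% lower of all genes. There 1 RAS-MAPK gene was higher and 2 lower, 1 pigment cell gene was higher, and 1 neural crest gene was lower.

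**Figure D4:**
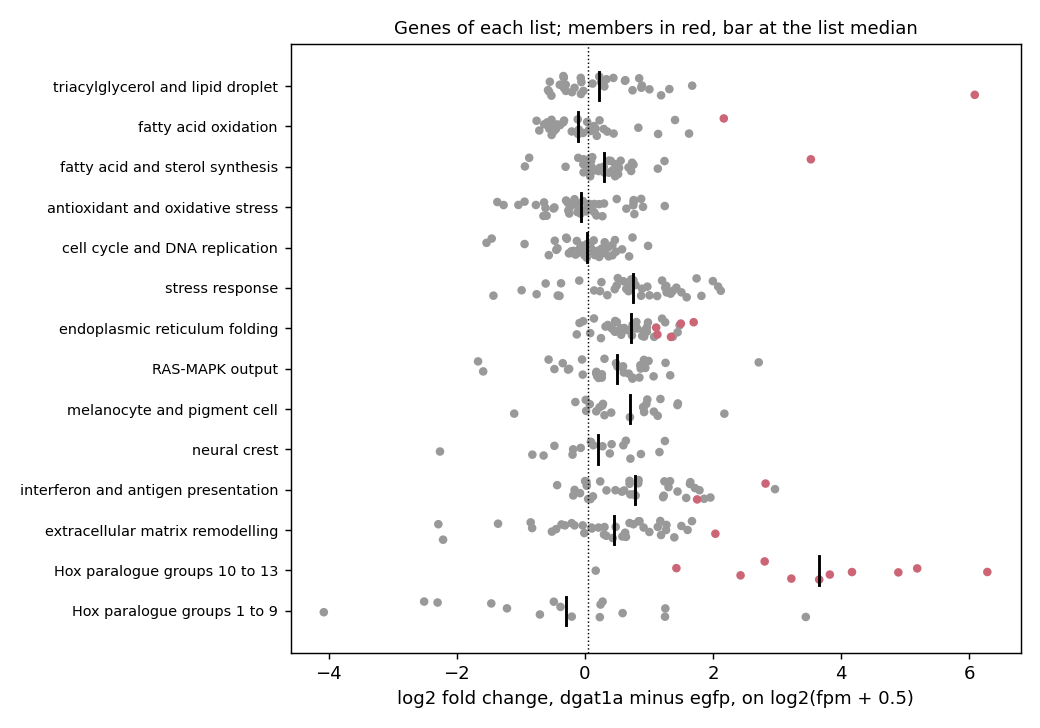
Log2 difference, dgat1a minus egfp, of each tested gene in each list, on log2(fpm + 0.5), with members in red, a bar at each list's median and a dotted line at the median of all tested genes, 0.04. DGAT1, ANGPTL4, scdb and LOXL2 are each the rightmost point of their list, while the interferon, Hox and reticulum lists hold several members.

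None of the 92 was on a marker list of another cell type, but the lists are short and not all of their symbols were matched. For muscle 16 of 23 symbols were matched, and for liver and gut 5 of 18. Members outside the lists, such as trim63a (0.176 to 0.618 fpm against 1.35 to 8.75 fpm), were not assigned to a cell type. The lists of muscle (15 genes tested), epidermis (21), macrophage (22), neutrophil (6), lymphocyte (12), erythrocyte (9), endothelium (16), fibroblast and mural cell (25), nerve (6) and liver and gut (2) had 0 members each, and limma called none of their genes. Their median log2 differences, in that order, were 1.84, 1.19, 0.39, 0.39, 0.86, -0.94, 0.14, 0.85, 0.14 and 0.31, beside 0.04 over all tested genes. In the authors' deposited table, 1 gene each of the muscle, macrophage and endothelium lists was higher. There 1 neutrophil gene was lower, beside 1.89% higher and 2.71% lower of all genes. Summed muscle markers were 139 to 297 fpm in egfp and 108 to 1534 fpm in dgat1a tumours, with the highest sum in dgat1a 1, which also had the highest atp2a2a. Summed epidermis markers were 2281 to 8163 fpm against 4670 to 9648 fpm, and summed fibroblast markers 884 to 4145 fpm against 2732 to 4283 fpm, with egfp 1 the lowest tumour on both lists. Summed macrophage markers were 1296 to 1692 fpm against 1285 to 2663 fpm, and summed endothelial markers 195 to 298 fpm against 192 to 378 fpm. Neutrophil sums were 107 to 127 fpm against 71.4 to 179 fpm, erythrocyte sums 277 to 843 fpm against 76.1 to 373 fpm, nerve sums 72.8 to 372 fpm against 75.1 to 171.5 fpm, and liver and gut sums 5.95 to 8.46 fpm against 4.70 to 15.5 fpm. The sums of every list overlapped between groups, no marker was at 0 in every tumour, and the part of these cells in the result was not tested.

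The dgat1a tumours were not alike over the 92 genes. The median gene differed 2.75-fold between its highest and its lowest dgat1a tumour. In 21 genes this spread was under 2-fold, among them HOXC10, PDIA3 and DGAT1, and in 18 it was over 10-fold, among them both HOXC12 identifiers, SP8 and CYP24A1. The lowest dgat1a tumour was most often dgat1a 4, in 33 genes or 35.9%, against 19.02% of all tested genes. The highest was dgat1a 2 in 26 genes and dgat1a 3 in 24, or 28.3% and 26.1%, near the 24.3% and 22.5% of all tested genes. In 15 genes the lowest dgat1a value was under 1 fpm.

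The genes nearest the rule's limit showed no break there. Just inside were DST, ppm1h and APLP1, with ratios of lowest dgat1a to highest egfp of 1.506, 1.506 and 1.508. Just outside were P2RY13, ENSDARG00000103934 and tnnc2.1, with 1.496, 1.492 and 1.489.

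The 5 genes outside the set whose log2(fpm + 0.5) values over the 8 tumours were most like the members' mean profile were RHBDD1 (Pearson's r = 0.978), MAN2B1 (0.9597), fbxl9 (0.951), USP32 (0.951) and RPN2 (0.950). These values follow from the choice of a profile that separates the groups, across 8 libraries, and carry no p. MAN2B1, a lysosomal mannosidase gene, read 57.9 to 75.1 fpm in egfp and 98.0 to 116 fpm in dgat1a tumours. RPN2, a subunit of the enzyme that attaches sugars to proteins in the reticulum, read 91.4, 129 and 118 fpm against 205, 183, 234, 204 and 224.5 fpm. Both had groups that did not overlap, with gaps below 1.5-fold.

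Few of the members that could be placed were neighbours. Of the 87 members with a symbol, 58 matched a single gene of GRCz12tu. Apart from the Hox C genes, 1 protein-coding gene lay between hoxa13b and hoxa10b by start. By the same ranking 4 lay between PLTP and CYP24A1 and 4 between atp2a2a and ENDOG. The member HOXA11 matched 2 genes and was not placed, so whether it lies between hoxa13b and hoxa10b is not known here.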

How the data were processed

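Bulk RNA from 8 tumours was sequenced. Per the submitters' processing notes the tools were STAR 2.5.3, featureCounts 1.6.2 and DESeq2 1.14.1 and the build GRCz11; the annotation, strandedness and any gene filter are not given in the sources used here. The authors deposited a per-gene signal in fpm, variance-stabilised log2 values, and a DESeq2-type table with log2 fold changes, a score (the Wald statistic), p-values and adjusted p-values per the file headers. In each library every signal value was a whole number of reads times a constant (100% within 0.01), so reads were recovered. Counting error alone sets the limits given for 0 reads.

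The main test was limma 3.58.1 (R 4.3.3) on log2(fpm + 0.5) where the mean over tumours reached 1 fpm, transgene the only factor, threshold 0.05 after Benjamini-Hochberg adjustment. edgeR 4.0.16, DESeq2 1.42.0, other pseudocounts, filters and scalings, and leaving out each tumour were tried. The limma, edgeR and DESeq2 fits on all tumours were checked on simulated data, and the other settings were not. Symbols came from a table of Ensembl names (21016 of 22416 identifiers); paralogues can share a symbol, and reads could be split between close copies. Members and lists were chosen with earlier results of these data known, and the Hox, reticulum and functional groups after the members were seen. Named genes were members on a list, the 20 widest gaps, the 10 highest in dgat1a tumours, limma calls, the 3 genes on each side of the limit, and DGAT genes; others were named as examples after their values were seen. Some items of the strain and some genes are not reported here. A planned search of promoters for motifs was not run. No per-sample column was left out, and no pair of libraries held identical values.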

Additional observations from a re-analysis of the deposited data

How the results depend on the processing

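The count of 92 genes depends on the limit of the rule. A ratio of 1.2 gave 256 and a ratio of 2 gave 37. With no minimum mean it was 164, on the variance-stabilised values 46 and on tumours 1 to 3 of each group 238. Leaving out 1 tumour gave 109 to 366 genes, which held 87 to 92 of the 92. By construction no member is lost when a control is left out. Without a dgat1a tumour a member can be lost only through the minimum mean. The highest counts were without egfp 2 (366) and egfp 3 (275). Without egfp 1, which left as many controls, the count was 143. Without dgat1a 1, dgat1a 2 or dgat1a 4 it was 161, 143 or 152. A minimum mean of 5 fpm, column totals and TMM factors gave 63, 105 and 97. Over the whole table limma called 9 genes, edgeR 3 and DESeq2 866, and leaving out 1 tumour gave 5 (without egfp 1) to 55 (without egfp 2) calls. Members among the calls were 6 with limma, 2 with edgeR, 86 with DESeq2 and 4 to 9 with 1 tumour left out. The labels do not say whether the replicate numbers pair the tumours. Deviations of same-numbered tumours correlated at 0.24, 0.07 and 0.007. Differently numbered tumours were not set beside them, so these values do not settle pairing. With the replicate number as a block in tumours 1 to 3, limma called 0 genes (2080 at an unadjusted p under 0.05) and 0 members; without the block in these tumours it called 4. For the second DGAT1 identifier (ENSDARG00000054914) the log2 difference of -0.06 turned to 0.070 without egfp 3 and 0.049 without dgat1a 1; leaving out 1 tumour gave -0.20 to 0.070. Of 36 named genes, a pseudocount of 0.1 moved the log2 difference of 10 by more than its spread and a pseudocount of 1 moved 1. Few reads limit the genes under 1 fpm.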
